A study of Arabidopsis thaliana with 4 samples.

Results

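AT4G11610 is a member of the MCTP family of Arabidopsis thaliana, whose proteins carry multiple C2 domains and a transmembrane region. It was described here beside 9 relatives. The genes were taken from a list of 10 locus tags, and a gene entered if the platform annotation gave a probe set to that gene alone. All 10 had such a probe set, out of 13513 probe sets that named exactly 1 gene and 22746 probe sets in all, Affymetrix controls left out. AT4G11610 was singled out because its signal differed between the genotypes, so its genotype difference is a description and carries no test. The relatives were chosen by family. Whether a probe set also read transcripts of a close relative was not tested.

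RNA was measured on 1-colour ATH1 arrays in whole seedlings kept in darkness for 4 days, after 3 days of cold and 4 hours of light to start germination, at 22 ºC. There were 2 arrays of wild type (Col-0) and 2 of the ein3-1eil1-1 double mutant, written ein3 eil1 here. The mutant carries lesions in EIN3 and its homologue EIL1, and the labels name no agent for either genotype. Organs were not separated.

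MCTP proteins are anchored in membranes by their C-terminal part and expose C2 domains, modules known for binding membrane lipids, often with calcium. In Arabidopsis several of them sit at plasmodesmata, the channels that join plant cells, where the endoplasmic reticulum runs close to the plasma membrane. QKY (QUIRKY, AT1G74720) is the one named relative in the list. It acts in organ shape and cell patterning together with a receptor-like kinase. EIN3 and EIL1 are transcription factors that act at the end of the ethylene pathway, which shapes seedlings growing in the dark.

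Some facts of the series bear on every value. The values deposited by the authors are MAS5 signal intensities on a linear scale, and their median was between 49.5 and 85.2 on the 4 arrays. Normalised values are quantile-normalised log2(signal + 3), and a difference is the mutant mean minus the wild-type mean with n = 2 per genotype. The test covered the 14031 probe sets at or above the 40th percentile of their array on at least 2 arrays. With limma and Benjamini-Hochberg adjustment, 41 of them passed an adjusted p of 0.05, a background of 0.292%. EIN3 itself was lower in the mutant. It had deposited signals of 766 and 992 on the wild-type arrays and of 76.7 and 221 on the ein3 eil1 arrays (log2 difference -3.12, SE 0.35, limma adjusted p = 0.014, and 0.052 without a filter). That difference matches the genotype labels, although the part of the transcript read by the probe set was not compared with the lesion. Of 13 organ and cell type markers, 6 were named and 4 tested, with differences from -1.13 to -0.01. Limma called 0 of the 4, with 1 (PORB) at an unadjusted p under 0.05. The shares of all tested probe sets were 0.292% and 6.14%. The root gene PYK10, the reserve-mobilising enzyme gene ICL and the etioplast enzyme gene PORB had normalised log2 signals of at least 9.97 on every array. PORB differed by -1.13 (95% interval from -1.88 to -0.38, limma unadjusted p = 0.0081, adjusted p = 0.42). It differed by -0.96 in the array pair whose titles carry no replicate mark and by -1.30 in the other. Both its mutant values lay below both wild-type values, an order met by 15.1% of all tested probe sets. The other 3 differed by less, the stomatal lineage gene SPCH by -0.24, ICL by -0.02 and PYK10 by -0.01. What part changes in organ proportions had in the result for AT4G11610 was not tested.

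AT4G11610 had a lower signal in the mutant on both arrays. Its deposited signals were 719.6 and 843.9 on the wild-type arrays and 65 and 126.7 on the ein3 eil1 arrays. Its normalised log2 values were 9.63 and 10.03 for wild type against 6.28 and 6.44 for ein3 eil1. Both mutant values lay below both wild-type values, an order met by 15.1% of all tested probe sets, and the gap between the lowest wild-type value and the highest mutant value was 3.19 log2 units.

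The mean normalised value of AT4G11610 was 9.83 ± 0.28 (SD, n = 2) in wild type and 6.36 ± 0.11 in ein3 eil1, a log2 difference of -3.47. On the log2(signal + 3) scale this is a signal 11.1-fold higher in wild type. The spread between arrays of 1 genotype was 0.21 log2 units (pooled SD), where the median over all tested probe sets was 0.29. All 4 values of AT4G11610 lay above the 40th percentile of their array, so the transcript was still read above the dim range in the mutant. As these are whole seedlings, fewer cells that use the gene and less RNA per cell cannot be told apart.

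The titles mark 1 array of each genotype as a biological replicate, and the other array of each genotype carries no such mark. This makes a first and a second title pair, each with 1 wild-type and 1 mutant array. AT4G11610 differed by -3.35 in the first pair and by -3.58 in the second. The 2 pairs thus gave differences of nearly the same size. Among the 14031 tested probe sets, AT4G11610 had the 14th lowest difference when ranked from the most negative. The pair differences and the rank come from the values that chose the gene, so they describe it and carry no support.

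**Figure D1:**
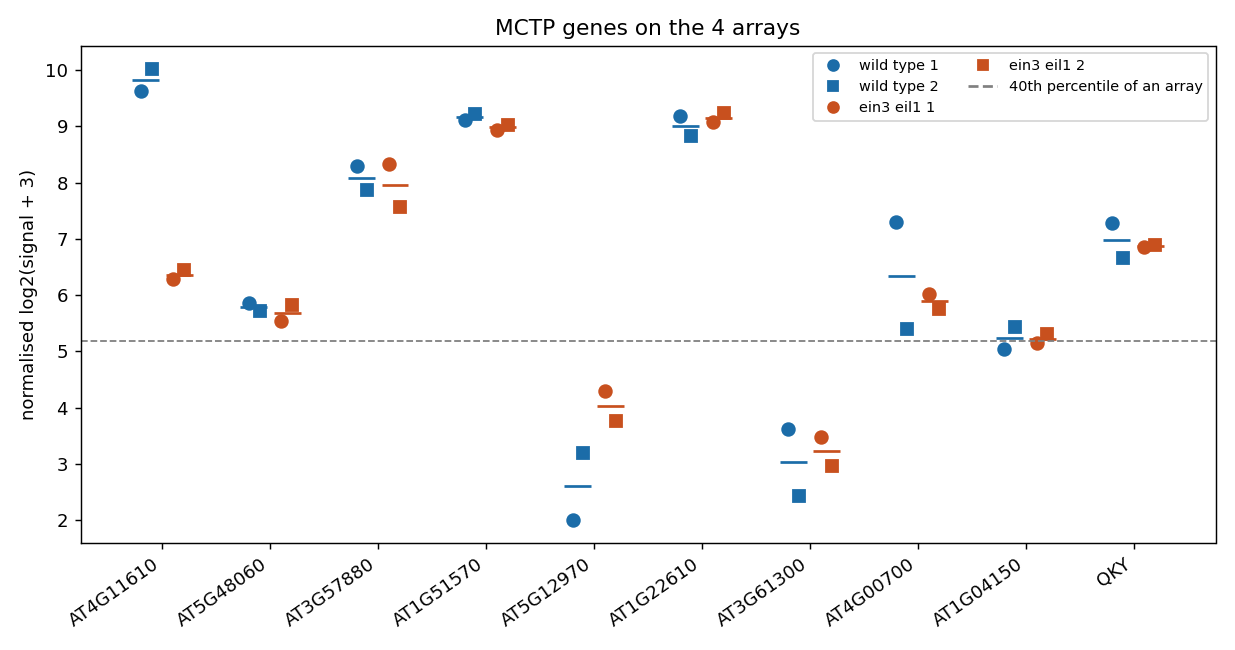
Normalised log2(signal + 3) values of the 10 MCTP genes on each of the 4 arrays (y axis), with wild type in blue, ein3 eil1 in orange, circles for the first title pair, squares for the second and short lines for the genotype means. The mean of AT4G11610 is 9.83 in wild type and 6.36 in ein3 eil1, and AT5G12970 and AT3G61300 stay under the dashed 40th percentile on all 4 arrays.

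None of the tested relatives passed the threshold. Of the 9, 7 reached the filter and were tested, and limma called 0 at an adjusted p of 0.05 and 0 at an unadjusted p of 0.05, against backgrounds of 0.292% and 6.14% of all tested probe sets. Their differences ran from -0.45 to 0.15, with a median of -0.11, where the median of all tested probe sets was 0.01. The median absolute difference was 0.13 for the 7 relatives and 0.22 for all tested probe sets. All 7 had a limma adjusted p of 0.9997.

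Missing the threshold does not show that the relatives were equal in both genotypes. The 95% intervals of the limma fit, made without the title pairs, give the range of differences left under that fit. Over the 7 relatives the intervals reached down to -1.73 (AT4G00700) and up to 1.00 (AT1G04150). A difference of the size seen for AT4G11610, -3.47, lay outside all 7 intervals. With the title pair as a block in the fit, the SE fell for all tested relatives but AT1G04150 (0.44 to 0.45). For AT4G00700 it went from 0.56 to 0.35. Intervals under the block were not worked out. The difference between AT4G11610 and a relative was not tested, because AT4G11610 was chosen for its value.

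AT1G51570 and AT3G57880 were both read clearly above the filter. AT1G51570 had deposited signals of 506.8 and 481.3 in wild type and 440.1 and 772 in ein3 eil1, which became normalised log2 values of 9.11, 9.22, 8.94 and 9.03 in that order. Its difference was -0.18 (SE 0.28, 95% interval from -0.81 to 0.46). The 2 mutant values lay just below the 2 wild-type values, a pattern without overlap that 31.6% of all tested probe sets showed in either direction, and AT1G51570 was the one relative of the 7 with it. With the deposited scaling, where the median of all tested probe sets rose by 0.40, its difference was 0.24.

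AT3G57880 had normalised log2 values of 8.30 and 7.86 in wild type and 8.32 and 7.57 in ein3 eil1. The genotypes overlapped, and each genotype held 1 higher value, in the first pair, and 1 lower value, in the second. Its difference was -0.13 (SE 0.35, 95% interval from -0.93 to 0.66), with 0.03 in the first pair and -0.29 in the second.

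AT1G22610 was the one tested relative with a positive mean difference. Its normalised log2 values were 9.19 and 8.82 for wild type against 9.07 and 9.24 for ein3 eil1, and the groups overlapped. The difference was 0.15 (SE 0.29, 95% interval from -0.52 to 0.82), with opposite signs in the 2 pairs (-0.12 and 0.42).

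QKY was read above the 40th percentile on all 4 arrays. Its deposited signals were 134.5 and 86.3 for wild type against 98.2 and 174.3 for ein3 eil1, and its normalised log2 values were 7.28, 6.67, 6.85 and 6.89. The 2 mutant values lay between the 2 wild-type values. The difference was -0.10 (SE 0.31, 95% interval from -0.81 to 0.60), with -0.43 in the first pair and 0.22 in the second.

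AT4G00700 was the tested relative with the widest spread between wild-type arrays. Its deposited signals were 135.6 and 36.3 for wild type against 54.1 and 74.9 for ein3 eil1, so the 2 wild-type arrays enclosed both mutant arrays. The normalised mean was 6.34 ± 1.34 (SD, n = 2) in wild type and 5.89 ± 0.18 in the mutant. The difference of -0.45 (SE 0.56, 95% interval from -1.73 to 0.83) rested on wild type replicate 1, without which it turned to 0.50, and it became -1.43 without wild type replicate 2. In the first pair it was -1.27 and in the second 0.37.

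AT5G48060 and AT1G04150 sat closest to the filter among the tested relatives. AT5G48060 had normalised log2 values of 5.85 and 5.72 in wild type and 5.54 and 5.82 in ein3 eil1, a difference of -0.11 (95% interval from -0.92 to 0.70). AT1G04150 had 5.04 and 5.44 in wild type and 5.15 and 5.30 in ein3 eil1, a difference of -0.02 (95% interval from -1.03 to 1.00). In both genes the genotypes overlapped. AT1G04150 passed the filter on 2 of 4 arrays, 1 of each genotype, and its values sat close to the 40th percentile, at 5.18.

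**Figure D2:**
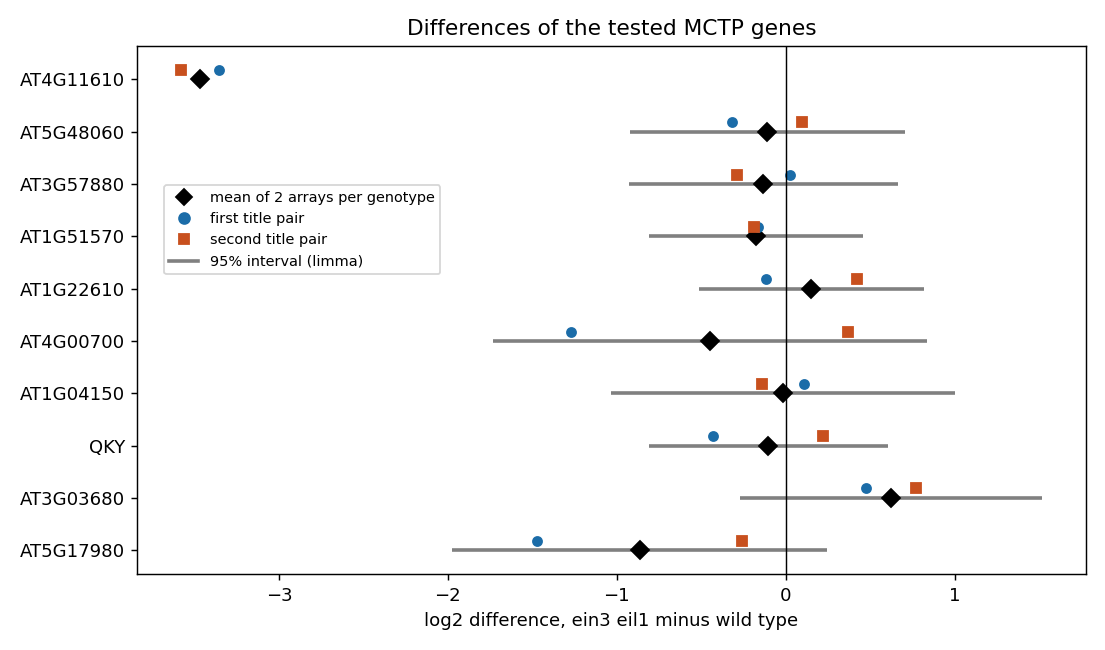
Log2 differences (x axis, ein3 eil1 minus wild type) of the tested MCTP genes, with the mean as a diamond, the first title pair as a circle, the second as a square and the 95% limma interval as a grey bar. No interval is drawn for AT4G11610, which was chosen for its difference of -3.47, and every drawn interval includes 0.

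The sign of the relatives' differences was not stable between the pairs. Of the 7 tested relatives, 1 (AT1G51570) had the same sign in both pairs, against 56.9% of all tested probe sets. In the first pair the 7 differences ran from -1.27 to 0.11 and in the second from -0.29 to 0.42. AT4G11610 differed by -3.35 and -3.58, but it was chosen for a large difference. Its equal sign in both pairs follows from that choice and does not set it apart from the relatives.

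Taking AT4G11610 against each relative on the same array takes out any factor that the whole array shares. The log2 ratio of AT4G11610 to each of the 7 tested relatives was lower in the mutant, with changes from -3.02 (AT4G00700) to -3.62 (AT1G22610). Within single pairs the changes ran from -2.09 to -4.00, both ends coming from AT4G00700 in the first pair and AT1G22610 in the second. For QKY the ratio was 2.35 and 3.36 in wild type and -0.57 and -0.45 in ein3 eil1. These ratios show an unequal change of the 2 probe sets and not that the relative was constant, and they share the values that chose AT4G11610.

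The remaining 2 relatives were too dim to be tested. AT5G12970 had deposited signals of 0.8 and 6.2 in wild type and 15.2 and 13.2 in ein3 eil1, and AT3G61300 had 7.6 and 2.8 in wild type and 7.7 and 6.2 in ein3 eil1. All 8 values lay below the 40th percentile of their array, which was between 28.2 and 46.7 in deposited signal, so no fold is given. The normalised mutant values of AT5G12970 (4.30 and 3.76) were both above the wild-type values (2.01 and 3.20), and without a filter it had a limma adjusted p of 0.89.

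**Figure D3:**
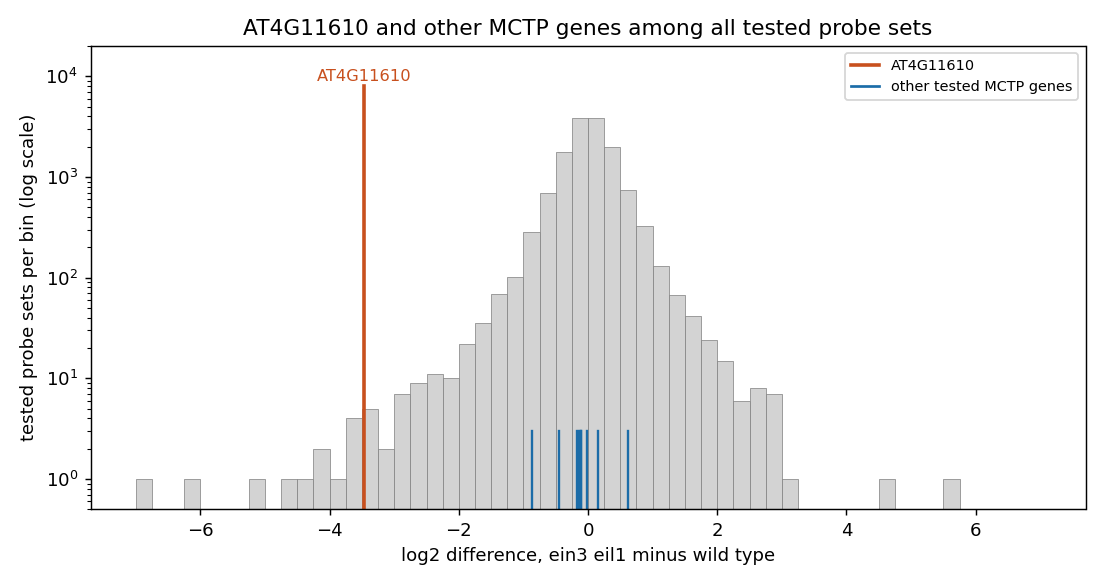
Number of tested probe sets (y axis, log scale) per bin of the log2 difference (x axis, ein3 eil1 minus wild type), with AT4G11610 as a tall orange line and the other tested MCTP genes as short blue lines. AT4G11610 lies at -3.47 in the thin left tail, and the other tested MCTP genes lie between -0.86 and 0.62.

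Further genes listed here as MCTP members, outside the list of 10, were read for context. Of 6, 4 had a probe set naming them alone and 2 of these were tested. AT3G03680 had normalised log2 values of 5.52 and 5.02 in wild type and 6.00 and 5.80 in ein3 eil1, a difference of 0.62 (SE 0.39, 95% interval from -0.27 to 1.52, limma adjusted p = 0.99). AT5G17980 had 6.15 and 5.25 in wild type and 4.68 and 4.99 in ein3 eil1. It passed the filter through its wild-type arrays alone, with both mutant values below the 40th percentile, so its order is tied to the filter and its size is uncertain. The difference was -0.86 (SE 0.48, 95% interval from -1.97 to 0.25, limma adjusted p = 0.96). The mutant values of AT3G03680 lay above both wild-type values, an order met by 16.5% of all tested probe sets. AT4G20080 and AT3G61720 stayed below the 40th percentile on all 4 arrays, with deposited signals from 1.4 to 24.4. FTIP1, an MCTP gene whose product helps the flowering signal leave the phloem companion cells, and AT5G03435 had no probe set naming them alone and were not analysed here.

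Other genes of plasmodesmata and of membrane contact sites were few on the named part of the array. The lists held 11 genes of contact sites between endoplasmic reticulum and plasma membrane, 8 plasmodesma-located receptor-like proteins, 13 genes of callose synthesis, binding and breakdown, and 4 known partners or cargoes of MCTP proteins. Only 2 contact-site genes and 3 callose genes were named, and 1 and 3 of them were tested. Together with the 2 tested MCTP genes outside the list of 10, limma called 0 of 6, with 0 at an unadjusted p of 0.05, which is near the background of 0.292% and 6.14%. One of the 6, AT5G17980, passed the filter through wild type alone. The highest differences of the 6 were those of AT3G03680 (0.62) and AT1G66250 (0.34), and the lowest were those of AT5G17980 (-0.86) and AT3G13560 (-0.23).

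ATSYTF, a synaptotagmin gene and the tested member of the contact-site list, had normalised log2 values of 6.93 and 7.20 in wild type and 7.47 and 7.19 in ein3 eil1. Its difference was 0.27 (95% interval from -0.38 to 0.92). NET3C, for an actin-binding protein of contact sites, had deposited signals from 0.9 to 12 and was not tested. The 3 callose genes AT3G13560, AT2G01630 and AT1G66250 were placed on the list as glucanase genes of plasmodesmata, and their differences were -0.23, -0.12 and 0.34. The intervals of all 3 included 0.

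Genes near AT4G11610 on chromosome 4 were also read. In the gene order of RefSeq (assembly TAIR10.1), the nearest 5 genes on each side with a probe set naming them alone were taken, and 6 of these 10 were tested. Limma called 0 of 6, with 0 at an unadjusted p of 0.05, where the shares of all tested probe sets were 0.292% and 6.14%, so these counts are near the background. The differences of these 6 ran from -0.51 to 0.36. The rest of the 10 lay below the 40th percentile on all 4 arrays. Among them, AT4G11590, 3 genes away on the side of lower coordinates, had deposited signals of 12.3 and 9.6 in wild type and 2.1 and 2.2 in ein3 eil1. AT4G11690, on the other side, went the other way, with 9.2 and 1.5 in wild type and 13.9 and 23.4 in ein3 eil1. Both are too dim for a fold to be given. The nearest tested gene on the side of lower coordinates was AT4G11570, 5 genes away, with a difference of 0.36 (SE 0.28). The nearest on the other side was SR (AT4G11640), 2 genes away, with normalised log2 values of 6.44 and 6.18 in wild type and 6.01 and 6.11 in ein3 eil1. Its difference was -0.25 (SE 0.31, limma adjusted p = 0.9997). The direct neighbours had no probe set naming them alone and were not analysed here.

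The genes whose profile over the 4 arrays came nearest to that of AT4G11610 were found by the root mean square difference of normalised log2 values after each probe set's own mean was taken off. Candidates were the 7315 other tested genes with a single named probe set. The nearest was ARL (ARGOS-LIKE), an organ growth gene, at 0.23 log2 units, followed by EIN3 at 0.26. AT4G26390 (0.34), AT2G34020 (0.37) and AT5G44580 (0.42) came next. Since AT4G11610 was chosen for a large negative difference, near profiles are by construction those of other genes with one, and 4 arrays hold little more than that contrast.

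ARL had normalised log2 values of 9.43 and 10.20 in wild type and 6.70 and 6.48 in ein3 eil1, against 9.63, 10.03, 6.28 and 6.44 for AT4G11610. Both genes had their highest value on wild type replicate 2, as did EIN3, AT4G26390, AT2G34020 and AT5G44580. EIN3 had 9.73 and 10.24 in wild type and 6.51 and 7.22 in ein3 eil1, so its second mutant array lay above its first, as it did, by less, for AT4G11610. AT4G26390 passed the filter through its wild-type arrays alone, with both mutant values (2.47 and 3.22) below the 40th percentile. Its order and its place among the near profiles are therefore tied to the filter. The size of its difference of -3.59 depends on the pseudocount.

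The 7 tested relatives of the list of 10 lay at 1.65 to 1.83 log2 units from AT4G11610 by the same measure, between places 1810 (AT1G51570) and 4859 (AT1G22610). Of the 2 tested MCTP genes outside that list, AT5G17980 lay nearer, at 1.38 (place 247 of 7315), and AT3G03680 farther, at 2.07 (place 6833). AT5G17980 passed the filter through wild type alone.

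**Figure D4:**
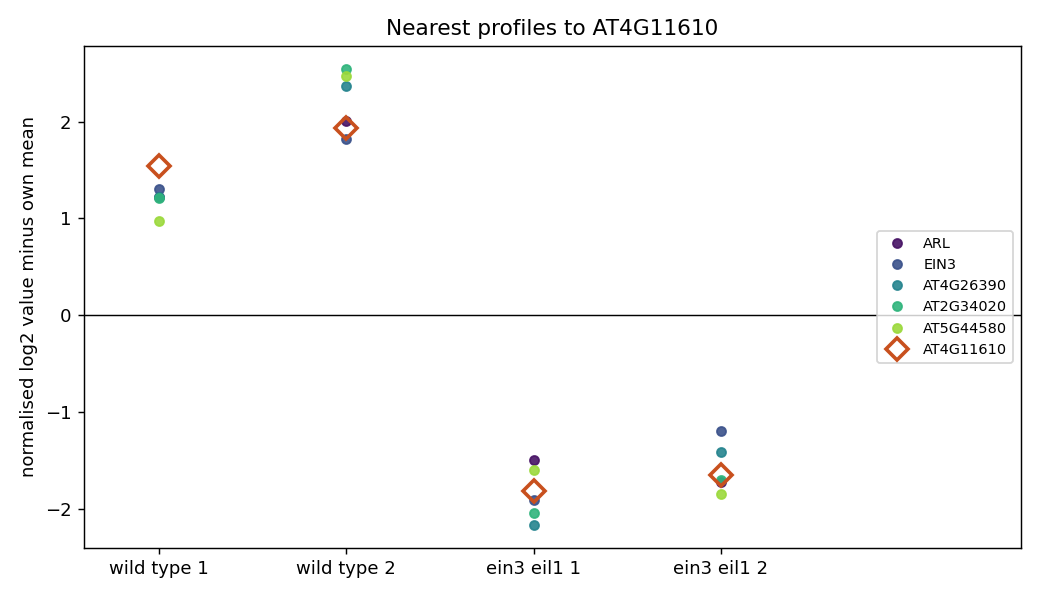
Normalised log2 values minus each gene's own mean (y axis) on the 4 arrays (x axis) for AT4G11610 (open diamonds) and the 5 genes with the nearest profiles (filled circles). All 6 genes are above 0 on both wild-type arrays and below 0 on both ein3 eil1 arrays, and ARL, at 0.23 log2 units, is the nearest.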

How the data were processed

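Per the submitters' processing notes, the authors made 1 MAS5 signal intensity per probe set and array, deposited on a linear scale. Its version, the scaling target and any detection calls are not given in the sources used here. Trimmed means (2%) ran from 139 to 246, so the arrays did not share a scale.

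A pseudocount of 3 was added, log2 taken and the values quantile normalised. A fold is on the log2(signal + 3) scale and understates changes of dim probe sets. limma 3.58.1 under R 4.3.3 compared the genotypes two-sided (lmFit, then eBayes with its trend option) over 14031 probe sets, without the 64 controls. Precision is limited by 2 arrays per genotype. Only the titles speak of biological replicates, and the p-values therefore cover only the spread between these samples, some of which may be technical. The script was tested on simulated data before use. In 3 simulations with 14031 probe sets, 200 of them changed, it recovered 13.3% of log2 changes of 1 and 80.7% of log2 changes of 2. There were 46 false calls. Their share among all calls was not worked out, so the simulations do not show that it stayed under 0.05. Changes of 1 were thus mostly missed.

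Names came from the platform annotation and RefSeq (TAIR10.1). Of the probe sets, 13513 had 1 gene, 503 had several, and the annotation did not list 8730. The members and lists were chosen with earlier results of these data known. Named were EIN3, the 10 genes, in the other lists the genes past the threshold or else the 2 highest and 2 lowest, the 5 nearest profiles, and the nearest tested neighbours. The others were named after their values were seen. No sequence is printed, since none was used here. Figures were drawn with matplotlib 3.10.9.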

Additional observations from a re-analysis of the deposited data

How the results depend on the processing

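With 2 arrays per genotype and signals near background for AT5G12970 and AT3G61300, small differences could not be resolved. The log2 difference of AT4G11610, the value it was chosen for, kept its sign in all 13 alternatives. These were other pseudocounts, scalings, filters and variance models, a block, and leaving out each array. With a genotype gap of 3.19 log2 units, its sign was fixed under all 13, so this is no check. The difference of AT4G11610 moved beyond its replicate spread under the deposited scaling (-3.06, which is -3.46 relative to the 0.40 shift of all probe sets by that scaling). It ran from -3.63 to -3.30 without 1 array. No relative, no listed plasmodesma or contact-site gene and no neighbour passed the threshold in any of the 13, and the lowest adjusted p of a relative was 0.21. Of 86 differences of the 7 relatives, 12 changed sign, 5 under the deposited scaling and 7 without 1 array. Those of the 86 under another filter, another variance model or the block equal the main difference and could not change sign. Under the deposited scaling AT5G48060 was 0.23, AT3G57880 0.29, AT1G51570 0.24, AT1G04150 0.29 and QKY (AT1G74720) 0.27, all 5 negative relative to the shift. Without 1 array, AT5G48060 ran from -0.25 to 0.034 (positive without ein3 eil1 replicate 1) and AT3G57880 from -0.50 to 0.24 (positive without wild type replicate 1 or ein3 eil1 replicate 2). AT1G22610 ran from -0.034 (without wild type replicate 2) to 0.33, AT4G00700 from -1.43 to 0.50 (positive without wild type replicate 1), AT1G04150 from -0.22 (without wild type replicate 1) to 0.061 (without ein3 eil1 replicate 1), having missed the filter without either other array, and AT1G74720 from -0.42 to 0.20 (positive without wild type replicate 1). EIN3 missed the threshold without a filter (-3.12, limma adjusted p = 0.052). The 41 calls over all probe sets became 95 under the deposited scaling, 72 with median centring, 14 without a filter (22746 tested) and 391 with the title pair as a replicate block, and ran from 68 to 182 without 1 array. The share of lower calls was 73.2%, against 37.9% under the deposited scaling, 85.7% without a filter, 54.7% with the block, and 39.3% and 50% without wild type replicate 1 and 2. The replicate deviations of both genotypes correlated at 0.43 over the tested probe sets, which hints at a pairing that the labels do not state, and the block changed no call among the MCTP genes tested. The causes of these shifts were not tested.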
